A study of Saccharomyces cerevisiae with 28 samples.

Results

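RDN5-1 is the gene for the 5S RNA of the large ribosomal subunit in the first annotated rDNA repeat of *S. cerevisiae*. It lies at chrXII:459676-459796 on the plus strand, between the spacers *IGS2* (annotated NTS2-1, chrXII:458433-459675) and *IGS1* (NTS1-2, chrXII:459797-460711). Its 121 bases were taken from the annotation, as 121 of the 2001 bases for which read depth was deposited, and their borders do not rest on a measured value. The gene itself was chosen with earlier results of these data known. Positions below are counted from 1 at the first base of the gene, with -1 for the base before it and no base 0.

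The study compared DNA protection and Mcm2-7 binding at the rDNA of *SIR2* cells and *sir2* cells, which lack the deacetylase that silences the spacers. MNase-seq, which sequences the DNA that bound particles shield from micrococcal nuclease, was used on 6 libraries, 1 each from WT in G1 and G2, *sir2* in G1 and G2, and temperature-sensitive *cdc6-1* in G1 at 23 and 37 degrees. G1 arrest was with alpha-factor and G2 arrest with nocodazole. The *cdc6-1* cells were first held in G2 with nocodazole at 23 degrees and then released into alpha-factor at 23 or 37 degrees. The WT and *sir2* cells in G1 went into alpha-factor without this step and at another temperature. Mcm2-ChEC, in which nuclease fused to the C-terminus of Mcm2 cuts nearby DNA once calcium is added, gave 7 libraries of cells in G1. These were 2 of WT and 1 of *sir2* with ordinary rDNA, and 2 of *SIR2* and 2 of *sir2* with expanded rDNA, treated with calcium for 30 s or 60 s by their names. The titles call the 2 WT libraries replicates, but their names differ in form and in the treatment terms they hold. Only 1 of them matches the form of the *sir2* name, so the WT libraries may differ in treatment, and only 1 may match the *sir2* library. DNA of sorted G1 and S phase cells, sheared by sonication and therefore without nuclease footprints, gave 4 libraries, 1 per phase from the *SIR2* and the *sir2* strain with expanded rDNA. The strains with expanded rDNA all lack *FOB1* and carry a deletion marked with HygR on the right arm of chromosome XII. They are not of the S288C background of the other strains, and their *sir2* members, unlike their *SIR2* members, also lack *hml* alpha. The *cdc6-1* strain keeps *hml* alpha, which the other strains with ordinary rDNA lack. Strain and assay cannot be told apart where MNase-seq is compared with the other assays. By their names, the sonicated and the expanded Mcm2-ChEC libraries were aligned to a modified reference, which the names of the other libraries do not mention. Where these 2 kinds are compared, the reference cannot be told apart from strain or assay either. Every MNase-seq condition had 1 library. Nothing in the labels says that the libraries made at 30 s and at 60 s, or the G1 and S phase fractions, came from separate cultures, so the p-values measure only the spread between these libraries.

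The 5S genes are transcribed by RNA polymerase III from a promoter that lies inside the gene. TFIIIA binds this internal region first, TFIIIC binds on top of it, and TFIIIB is then placed just upstream of the start, where it recruits the polymerase. Transcription ends in a run of T on the strand that has the sequence of the RNA. Protected DNA in a 5S gene can thus come from transcription factors and polymerase as well as from nucleosomes.

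The gene and the DNA on its left are shown because the borders of the protected stretches lie in them. In RDN5-1 the capitals mark bases 72 to 121, the last read length of the gene. In the 104 bases before it they mark bases -73 to -24, the stretch between 2 borders that all MNase-seq libraries share. In the 40 bases after it they mark the T run. RDN5-2 is shown because reads from 5S copies cannot all be told apart, and its capital marks its 1 difference. All sequences are from the RefSeq S288C reference (R64, chromosome XII, plus strand).
RDN5-1: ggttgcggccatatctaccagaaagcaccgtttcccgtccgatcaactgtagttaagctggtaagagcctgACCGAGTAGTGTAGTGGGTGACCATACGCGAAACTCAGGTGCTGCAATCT
before RDN5-1: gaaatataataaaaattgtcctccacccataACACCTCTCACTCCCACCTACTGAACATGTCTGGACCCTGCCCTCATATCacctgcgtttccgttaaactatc
after RDN5-1: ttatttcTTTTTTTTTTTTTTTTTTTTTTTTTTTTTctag
RDN5-2: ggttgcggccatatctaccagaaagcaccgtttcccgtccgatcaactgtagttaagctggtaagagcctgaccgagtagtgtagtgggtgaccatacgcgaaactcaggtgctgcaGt

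The reference holds 6 annotated 5S copies. RDN5-6 is identical to RDN5-1 over 121 bases, and RDN5-2 to RDN5-5 are annotated with 119 bases and differ by A118G, counted from the first base of the gene. A 50-base read that starts between bases -2 and 68 has 6 identical places in the reference. One that starts between -150 and -3, or between 69 and 74, has 2, and one that starts at 75 or later has 1. These numbers were counted in the RefSeq reference and not in the modified one to which the libraries with expanded rDNA were aligned by their names. How reads with several places were assigned is not given in the sources used here, and cells hold many more repeats than the reference. The depth over the first part of RDN5-1 can therefore hold reads of any 5S gene. The GC content is 52.1% in the gene, 42.2% in the 121 bases before it and 29.8% in the 121 bases after it.

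The deposited depth counts the sequenced 50 bases at each end of a fragment, and the middle of a longer fragment is not counted. The interval held between 759788 and 2233018 reads in the MNase-seq libraries, between 689392 and 5022993 in the Mcm2-ChEC libraries and between 24177 and 85504 in the sonicated libraries. Over the gene itself these numbers were 29852 to 131259, 4626 to 71527 and 1334 to 4748, as the summed depth divided by 50. Each library was scaled to the mean depth of all its 2001 bases, and the mean of the scaled depth over the gene is called its relative depth. A value of 1 means that the gene was covered like the average base.

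In sonicated DNA the relative depth of RDN5-1 was close to that of the average base. It was 0.913 in *SIR2* G1, 0.898 in *SIR2* S, 0.870 in *sir2* G1 and 0.918 in *sir2* S phase DNA, a mean of 0.900 ± 0.0215 (SD, n = 4). The profile was not flat within the gene. It fell from the start to a lowest value at bases 57 to 61 in 3 of the 4 libraries and rose to its highest between bases 82 and 90 in all 4, with a highest over lowest depth of 1.45 to 1.58. The 20 bases from 76 on were covered 1.27 to 1.48 times as deeply as the 20 bases from 46 on. In the RefSeq reference, the number of places of a read changes from 6 to 2 and 1 where this rise lies. By their names, the sonicated libraries were aligned to a modified reference, whose numbers of places are not known here. The part of the number of places in the profile was not tested.

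**Figure D1:**
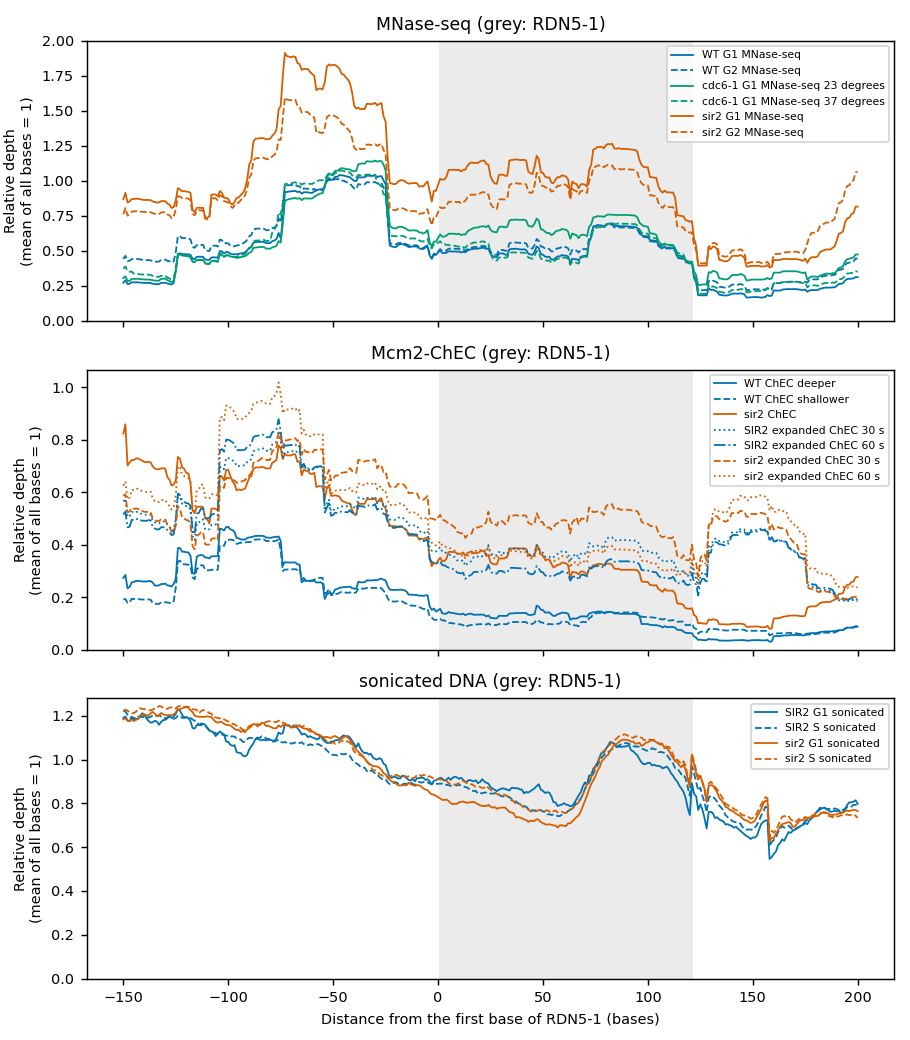
Relative depth (mean of all bases of a library = 1) against the distance from the first base of RDN5-1 in bases, for MNase-seq, Mcm2-ChEC and sonicated DNA, with a line for each library and the gene in grey. The *sir2* MNase-seq libraries lie above the others, with the highest stretch before the gene at -73 to -24, and the sonicated libraries share a dip and a rise inside the gene.

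In MNase-seq, RDN5-1 was covered less deeply than in sonicated DNA in 4 of 6 libraries, and like the average base in both *sir2* libraries. The relative depth was 0.530 in WT in G1 and 0.548 in WT in G2. It was 1.06 in *sir2* in G1 and 0.925 in *sir2* in G2. In *cdc6-1* cells in G1 it was 0.650 at 23 degrees and 0.535 at 37 degrees. The *sir2* values were the highest of the 6, and the WT and *cdc6-1* values lay together between 0.530 and 0.650. Over all 6 libraries the relative depth was 0.708 ± 0.229 (SD, n = 6), and the geometric mean was 0.756 of the sonicated one, a difference that did not pass the test (exact two-sided permutation test of log2 relative depth, 6 against 4 libraries, p = 0.148, adjusted p = 0.154 over the 8 tests made on this gene). Without the *sir2* library in G1 the difference in log2 was -0.53 (exact permutation p = 0.0476), and without both *cdc6-1* libraries it was -0.30 (exact permutation p = 0.429). When depth was scaled to the bases outside the origin footprints, from 170 bases before to 470 after the first base of the rDNA origin (rARS), it was -0.70 (exact permutation p = 0.0143), and when scaled to the footprint of Reb1, a factor bound near the 35S promoter, it was -1.13 (exact permutation p = 0.00952).

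**Figure D2:**
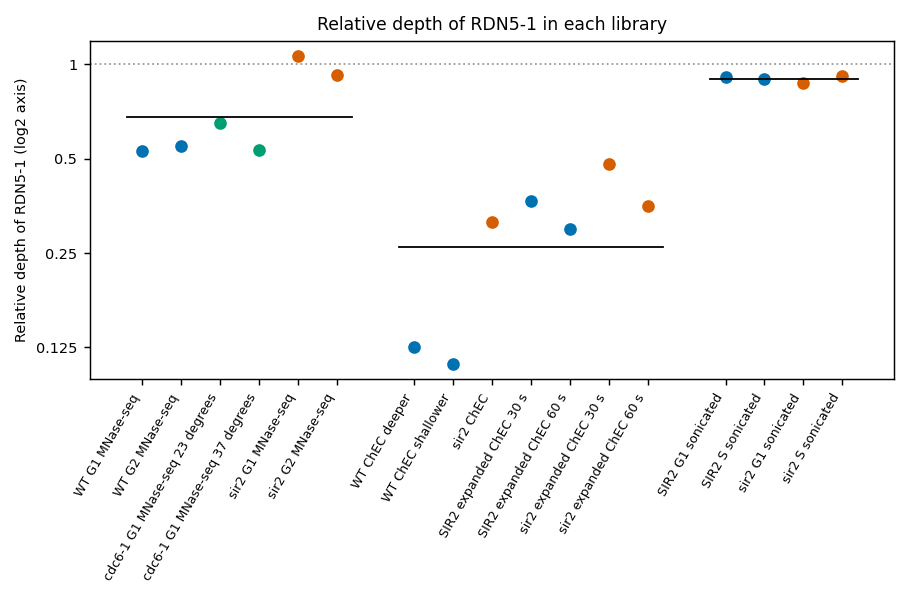
Relative depth of RDN5-1 in each of the 17 libraries on a log2 axis, in blue for *SIR2* strains, orange for *sir2* and green for *cdc6-1*. Black lines are geometric means of an assay, and the dotted line is the average base. Mcm2-ChEC values lie between 0.111 and 0.480, below all MNase-seq values.

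Within MNase-seq, the depth of the gene differed less between arrests and between temperatures than between *sir2* and WT. The ratio of G1 to G2 was 0.966 in WT (95% interval 0.956 to 0.977) and 1.15 in *sir2* (1.14 to 1.16), but the G1 cells were digested with 7.5 U of MNase and the G2 cells with 3.75 U, and the effects of arrest and of digestion cannot be told apart. The ratio of 37 to 23 degrees in *cdc6-1*, in which the loading factor Cdc6 is inactive at the higher temperature, was 0.823 (0.811 to 0.835). The alpha-factor arrest was longer at 23 than at 37 degrees, so time and temperature cannot be told apart. These intervals treat reads as independent, cover counting error only and say nothing of differences between cultures.

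In Mcm2-ChEC the gene was among the shallow parts of the interval. The relative depth was 0.125 in the deeper and 0.111 in the shallower WT library, and 0.314 in the *sir2* library. In the strains with expanded rDNA it was 0.368 at 30 s and 0.299 at 60 s in *SIR2* cells, and 0.480 at 30 s and 0.354 at 60 s in *sir2* cells. All 7 values lay below those of MNase-seq and of sonicated DNA, and the WT values were the lowest of all libraries. Within each strain the 60 s library was lower than the 30 s library, at 0.813 of it in *SIR2* (95% interval 0.804 to 0.823) and 0.739 in *sir2* (0.729 to 0.749).

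For the 4 libraries with expanded rDNA, which share their type of strain with the sonicated libraries, the relative depth was 0.375 ± 0.0758 (SD, n = 4). Its geometric mean was 0.411 of that of sonicated DNA, with no overlap of the groups (exact two-sided permutation test, 4 against 4 libraries, p = 0.0286, the smallest this design allows, adjusted p = 0.0571). The difference in log2 was -1.28 and between -1.41 and -1.18 when any 1 of the 8 libraries was left out. It was -0.48 when depth was scaled outside the origin footprints. The stretch from 170 bases before to 470 after the rARS held 62.5% to 65.1% of the depth in these Mcm2-ChEC libraries and 36.6% to 37.9% in the sonicated ones.

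The relative depth was 2.61-fold higher in MNase-seq than in Mcm2-ChEC as a ratio of geometric means (exact two-sided permutation test, 6 against 7 libraries, p = 0.00117, adjusted p = 0.00932), and the 2 sets did not overlap. The difference depended on the scaling. The stretch around the rARS held 20.3% to 27.5% of the depth in MNase-seq and 62.5% to 73.1% in Mcm2-ChEC. Scaled to the depth outside that stretch, the difference in log2 was 0.16 in place of 1.38 (exact permutation p = 0.647), and scaled to the Reb1 footprint it was 0.69 (exact permutation p = 0.153).

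In both assays RDN5-1 was covered more deeply in *sir2* than in *SIR2* cells. In MNase-seq the ratio of *sir2* to WT was 2.00 in G1 (95% interval 1.99 to 2.02) and 1.69 in G2 (1.67 to 1.70). In Mcm2-ChEC the *sir2* library was 2.50 times the deeper and 2.83 times the shallower WT library. With expanded rDNA the ratio was 1.30 at 30 s (1.29 to 1.32) and 1.18 at 60 s (1.17 to 1.2). The 30 s *SIR2* library, at 0.368, lay above the 60 s *sir2* library, at 0.354, so in the expanded strains the genotypes overlapped unless compared at the same time. In sonicated DNA the *sir2* values, 0.870 and 0.918, lay on either side of the *SIR2* values, 0.913 and 0.898.

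The mean difference of *sir2* from *SIR2* over the 4 strata (MNase-seq in G1, in G2, and Mcm2-ChEC with ordinary and with expanded rDNA) was 0.87 in log2, or 1.83-fold (exact two-sided permutation test within strata, 72 arrangements, p = 0.0278, adjusted p = 0.0571, smallest possible p 0.0139). After adjustment this difference did not pass the threshold of 0.05. It was positive in 4 of 4 strata, and from 1.61-fold to 1.90-fold when any 1 of 11 libraries was left out, the lowest without the *sir2* Mcm2-ChEC library with ordinary rDNA (log2 0.69, exact permutation p = 0.167). The exact permutation p was above 0.05 without any 1 of the 4 MNase-seq libraries, the 3 Mcm2-ChEC libraries with ordinary rDNA, the 60 s *SIR2* or the 30 s *sir2* library with expanded rDNA, 9 of the 11. Each of these MNase-seq libraries and the *sir2* Mcm2-ChEC library with ordinary rDNA was the only one of its genotype in its stratum. Leaving it out dropped the whole stratum and left 36 or 24 arrangements. With fewer arrangements the smallest possible p is larger. Scaled to the Reb1 footprint, the ratios in Mcm2-ChEC with ordinary rDNA were larger, 4.36 and 4.31, and those with expanded rDNA were 1.60 and 1.5.

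The difference between genotypes was not confined to the gene. In the 121 bases of *IGS2* before it, the ratio of *sir2* to WT in MNase-seq was 1.83 in G1 and 1.49 in G2, and in the 121 bases of *IGS1* after it 2.81 and 2.38. In Mcm2-ChEC with ordinary rDNA it was 1.91 and 2.09 before the gene and 3.29 and 2.56 after it, in the order deeper and shallower WT. In all 4 of these comparisons the gene lay between a smaller ratio on its left and, in 3 of them, a larger one on its right. With expanded rDNA the ratios before the gene were 1.08 at 30 s and 1.17 at 60 s, and those after it, part of which lies past base 211, where depth fell to near 0 in these libraries, 1.12 and 1.27. Of 6 windows that divide the rest of the interval, those whose log2 relative depth followed that of the gene most closely across the 17 libraries were *IGS1* from the gene to the end of the interval (Pearson r = 0.93) and the *IGS2* stretch from 470 bases after the rARS to the gene (r = 0.90). These windows share libraries and scaling with the gene, and the first also contains the base after which depth fell to near 0 in the libraries with expanded rDNA and in sonicated DNA, base 211.

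All MNase-seq libraries shared 2 pairs of borders. In 6 of 6 the depth rose at bases -74 and -73, by 0.0809 to 0.213 and 0.136 to 0.193 of the mean depth of the library, and fell 1 read length further on, at -24 by 0.152 to 0.254 and at -23 by 0.132 to 0.199. The reads between these borders, in capitals in the sequence before the gene, had a relative depth of 0.967 to 1.69, which was 1.56 to 1.96 times that of the first 20 bases of the gene. In sonicated DNA the same ratio was 1.16 to 1.34. At these 4 bases the depth of sonicated DNA changed by at most 0.0397. Further to the left, at bases -108 and -88, both *sir2* libraries rose by 0.143 to 0.153 and by 0.0969 to 0.133, among their 6 largest rises. At the same bases the other 4 MNase-seq libraries rose by 0.0171 to 0.0371 and by 0.0280 to 0.0410.

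A second pair of borders enclosed the last read length of the gene. In 6 of 6 MNase-seq libraries the depth rose at base 72 by 0.0664 to 0.119 and at base 74 by 0.0485 to 0.107, and it fell at base 122, the first base after the gene, by 0.0702 to 0.125 and at base 124 by 0.0735 to 0.145. The highest depth in the gene was at base 81 or 83 in all 6. The lowest was at base 120 in 4 and at base 63 in 2 of them, WT in G1 and *cdc6-1* at 37 degrees. A fragment that reached from -74 or -73 to 121 or 123 would have 194 to 197 bases and would leave 1 read at each of these places, but the deposited depths do not say which ends belong together. In sonicated DNA the steps at these bases were smaller and lay among neighbouring steps of similar size. It fell at base 119 by 0.0398 to 0.0515 and at base 128 by 0.0439 to 0.0582 in 4 of 4 libraries. Sonicated DNA rose at bases 72 and 74 by 0.0168 to 0.0397, and it fell at base 122 by 0.0308 to 0.0474 and at base 124 by 0.0290 to 0.0629. All Mcm2-ChEC libraries also rose at base 72, by 0.0118 to 0.0536. They fell at base 122 by 0.0125 to 0.0557 and at base 124 by 0.00915 to 0.0506. At base 74 their steps ran from -0.00660 to 0.0118. Steps are given as shares of the mean depth of all bases, and the gene was shallower in Mcm2-ChEC than in MNase-seq. Bases 72 and 74 lie between the read starts 69 and 75, at which the number of places of a read in the RefSeq reference changes.

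With a protected stretch taken as at least 20 bases in a row at or above the mean sonicated profile, the gene held one in 2 of the 13 nuclease libraries, both of them *sir2* MNase-seq. In *sir2* in G1 it ran from -2 to 100 and took in 100 of the 121 bases, with a relative depth of 1.10 and at most 1.5 times the sonicated profile. It was separated by 1 base from another that ran from -90 to -4, with a relative depth of 1.46. In *sir2* in G2 the stretches ran from -88 to -24 and from 29 to 87. Before the gene, *cdc6-1* at 23 degrees had a stretch of 25 bases from -49 to -25. No Mcm2-ChEC library had one in the gene or in the 150 bases before it, and no library had one in the gene at 1.5 times the sonicated profile. Stretches that begin at base 190 or later are not described, because depth in the sonicated libraries fell to near 0 after base 211. By their names, the MNase-seq and the sonicated libraries differ in reference, and its part in these stretches was not tested.

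**Figure D3:**
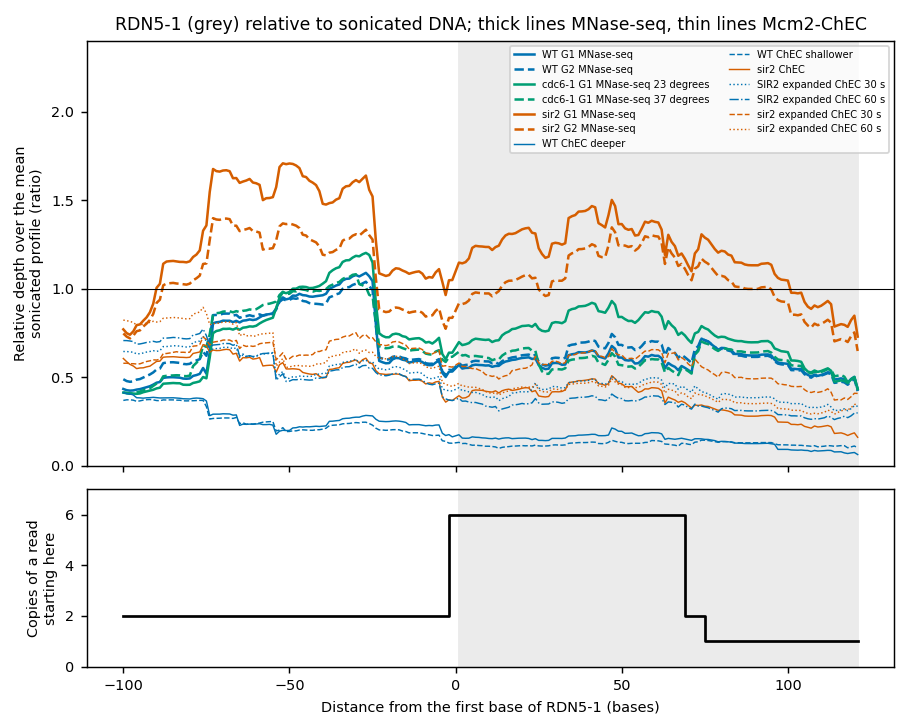
Upper panel, relative depth of each MNase-seq (thick lines) and Mcm2-ChEC library (thin lines) divided by the mean sonicated profile, against the distance from the first base of RDN5-1 in bases, with the gene in grey. Lower panel, number of places in the RefSeq reference of a 50-base read that starts at each base, which is 6 from -2 to 68 and 1 from 75 on. It was not counted in the modified reference of the sonicated libraries. Inside the gene the ratio reached 1 only in the *sir2* MNase-seq libraries, up to 1.5 in G1.

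Before the gene, Mcm2-ChEC had borders that were weaker or absent in MNase-seq. In 7 of 7 the depth rose at base -104 by 0.0910 to 0.298 and fell at base -54, a read length later, by 0.0459 to 0.21. It also fell at base -4, just before the gene, by 0.0291 to 0.0847, as MNase-seq did by 0.0509 to 0.0858. At -74, where MNase-seq rose, Mcm2-ChEC fell in 7 of 7, by 0.0358 to 0.0937. The gene was covered at 0.395 to 0.740 of the depth of the 121 bases before it, against 0.733 to 0.894 in MNase-seq and 0.810 to 0.870 in sonicated DNA. These ranges of Mcm2-ChEC and sonicated DNA did not overlap. Within the gene the highest depth was at base 82 in 4 of 7 libraries, at base 47 in 2 and at base 1 in 1.

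Relative to sonicated DNA, the end of the gene was the least covered part. Divided by the sonicated profile, bases 81 to 121 were below bases 41 to 80 in 13 of 13 nuclease libraries, and below bases 1 to 40 in 12 of 13, the shallower WT Mcm2-ChEC library being the exception (0.121 against 0.118). In *sir2* MNase-seq the 3 parts, from first to last, were 1.28, 1.31 and 1.00 in G1 and 1.04, 1.2 and 0.883 in G2. In WT in G1 they were 0.588, 0.617 and 0.564, a smaller spread. The *sir2* Mcm2-ChEC library had 0.428, 0.405 and 0.243. Of the nuclease libraries, only Mcm2-ChEC with expanded rDNA shares the modified reference with sonicated DNA by its names. The part of the reference in these ratios was not tested.

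The 3' share, the percent of the depth over the gene that lies in its last 60 bases, does not depend on how a library is scaled and would be 49.6% for even depth. It was 51.8% and 54.0% in *SIR2* and 55.9% and 54.4% in *sir2* sonicated DNA, G1 before S phase, with a mean of 54.0% ± 1.70 (SD, n = 4). In MNase-seq it was 53.4% in WT in G1, 52.0% in WT in G2, 48.9% in *sir2* in G1, 50.4% in *sir2* in G2, and 48.8% and 53.5% in *cdc6-1* at 23 and 37 degrees. The sonicated values lay in the upper part of this range, and the mean difference of -2.89 percentage points did not pass the test (exact two-sided permutation test, 6 against 4 libraries, p = 0.0571, adjusted p = 0.0914). The exact permutation p was 0.0397 without WT in G1 or without *cdc6-1* at 37 degrees, and 0.0357 without the *SIR2* G1 sonicated library, which is the shallowest, with differences of -3.33, -3.35 and -3.62 points. Without the first and last 20 bases of the gene the difference was -1.67 points (exact permutation p = 0.219). Assay and reference cannot be told apart in this comparison.

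In Mcm2-ChEC with expanded rDNA the 3' share was 50.05% and 49.6% in *SIR2* and 49.4% and 48.0% in *sir2* cells, at 30 s and 60 s. All 4 were below all 4 sonicated libraries, by 4.76 percentage points on average (exact two-sided permutation test, p = 0.0286, the smallest possible, adjusted p = 0.0571). With 1 of these 4 Mcm2-ChEC libraries left out, the difference was from -5.01 to -4.34 points and the exact permutation p 0.0571. The libraries with ordinary rDNA were spread more widely, with 45.0% in the deeper and 54.3% in the shallower WT library and 42.5% in *sir2*, so the WT pair differed by 9.31 points. MNase-seq and Mcm2-ChEC differed by 2.73 points (exact permutation test, 6 against 7 libraries, p = 0.154, adjusted p = 0.154), and by 3.72 points without the shallower WT library (exact permutation p = 0.0346).

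The 3' share was lower in *sir2* than in *SIR2* libraries in 4 of 4 strata, by 4.47 points in MNase-seq in G1, 1.59 in G2, 7.2 in Mcm2-ChEC with ordinary and 1.09 with expanded rDNA. The mean of -3.59 points did not pass the test (exact two-sided permutation test within strata, p = 0.125, adjusted p = 0.154). Without the deeper WT library it was -4.75 and without the shallower one -2.42 points (exact permutation p = 0.0417 for both). In sonicated DNA the *sir2* shares were above the *SIR2* shares of the same phase, by the values given above. Across the bases of the gene, the profiles of 2 MNase-seq libraries had a median Pearson r of 0.86 (15 pairs, 0.56 to 0.97), and those of a MNase-seq and a sonicated library 0.52 (24 pairs, 0.03 to 0.94). Neighbouring bases share reads, so these values are a description.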

How the data were processed

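The authors aligned paired 50-base reads with GSNAP. They deposited coverage (signal, the number of reads over each base) for 28 libraries, unscaled and without a choice of fragment size. The submitters' processing notes also name Picard, bedtools and sacCer3, without versions here. Of the 28 columns, 17 were used and 11 were not used, among them the *fob1* strains and the strains with a terminator. By their names, the libraries with expanded rDNA were aligned to a modified reference, and in them depth fell to near 0 after chrXII:459886, 90 bases after the gene. Calcium times of the libraries with ordinary rDNA are not settled. The gene, the lists of windows and the comparisons were chosen with earlier results of these data known. The named windows were flanks of the gene's own length and the 2 windows whose depth followed the gene most closely.

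From the depths, the relative depth and the 3' share of the gene were computed. Groups were compared with exact two-sided permutation tests at a threshold of 0.05 with Benjamini-Hochberg adjustment over 8 tests. Intervals are log-normal 95% intervals for counting error. Alternatives were other scalings, other borders of the gene, its highest depth, subtraction of the lowest depth of the library and leaving out each library. Scaling to the bases up to the end of the gene, division by the sonicated profile, MNase-seq strata alone and pairing by calcium time were added after seeing the data. Lags between rises and falls of depth before the gene were 50 bases in all 17 libraries. The scripts were tested on simulated data. Python 3.11.15, numpy 2.4.6, pandas 2.3.3 and matplotlib 3.10.9 were used.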

Additional observations from a re-analysis of the deposited data

How the results depend on the processing

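No paired analysis was possible because the labels give no replicate numbers that link libraries of different groups, apart from pairing the expanded libraries by the calcium time in their names. With this pairing the difference of *sir2* from *SIR2* was 0.76 in log2 (exact permutation p = 0.0208) and -3.09 points in the 3' share (exact permutation p = 0.104). No result changed its direction under any alternative. Apart from leaving out libraries, 47 of the 56 alternative values with a test kept their side of 0.05 by the unadjusted p. With scaling outside the origin footprints, MNase-seq against sonicated DNA gave a log2 difference of -0.70 and MNase-seq against Mcm2-ChEC 0.16. Limited further to bases up to the end of the gene, they were -0.68 and 0.20. With Reb1 scaling they were -1.13 and 0.69. For *sir2* against *SIR2*, the log2 difference was 0.86 with the Mcm2-ChEC strata only (exact permutation p = 0.111) and 0.88 with the MNase-seq strata only (exact permutation p = 0.5), the smallest p 2 such strata allow. The 3' share difference of MNase-seq from sonicated DNA was -3.82 points over the last 40 bases (exact permutation p = 0.0333) and -1.67 without the first and last 20 bases (exact permutation p = 0.219). Protected stretches in the gene were found in 0 libraries at 1.5 times the sonicated profile, against 2.

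With each library left out in turn, the log2 difference in relative depth was -0.53 to -0.33 for MNase-seq against sonicated DNA, -1.41 to -1.18 for Mcm2-ChEC against sonicated DNA, 1.18 to 1.53 for MNase-seq against Mcm2-ChEC and 0.69 to 0.93 for *sir2* against *SIR2*. In the same order, the 3' share difference was -3.62 to -2.25, -5.49 to -4.12, 1.74 to 3.72 and -4.75 to -2.38 points. For *sir2* against *SIR2*, leaving out the only library of a genotype in a stratum dropped that stratum. The shallowest sonicated library had 1334 reads over the gene and the shallower WT Mcm2-ChEC library 4626, and both are among the libraries without which a 3' share comparison had an unadjusted p under 0.05.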

Other observations

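The border of the gene with *IGS1* differed between the libraries. The 20 bases that begin at the 5th base after the gene were covered at 0.357 to 0.571 of the depth of 20 bases near its end in MNase-seq and at 0.400 to 0.635 in Mcm2-ChEC with ordinary rDNA. They were covered at 1.09 to 1.60 of it in the 4 Mcm2-ChEC libraries with expanded rDNA and at 0.746 to 0.774 in sonicated DNA. The T run after the gene is 29 bases long and takes up the 8th to the 36th base after it. Sonicated DNA rose at base 121 by 0.134 to 0.150 and fell at base 158, the first base after the T run, by 0.174 to 0.187 of the mean depth. At base 121, Mcm2-ChEC with expanded rDNA rose by 0.0438 to 0.0573 and MNase-seq by at most 0.00532. All libraries rose at base 129, the first base of the T run. The rise was 0.0515 to 0.131 in MNase-seq and 0.0670 to 0.0805 in sonicated DNA. In Mcm2-ChEC it was 0.115 to 0.152 with expanded and 0.00523 to 0.0169 with ordinary rDNA. The sonicated and the expanded Mcm2-ChEC libraries share the modified reference, so strain and reference cannot be told apart here.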
